A study of Mus musculus with 8 samples.

Results

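The extended major histocompatibility complex (MHC) of the mouse, taken here as chromosome 17 from 33.5 to 37.5 Mb (mm10), was described by the open chromatin of splenic natural killer (NK) cells. ATAC-seq peaks of all 8 deposited lists were merged where they overlapped by at least 1 bp, and a merged region with a peak in 2 or more lists was kept. The window held 295 such regions, of 50044 in the whole series. MUT mice carry HSF1 with serines 303 and 307 changed to alanine (S303/7A), and WT mice have wild-type HSF1. HSF1 is the transcription factor that drives the heat shock genes. There were 4 libraries of MUT mice (replicates 26, 27, 28 and 29) and 4 of WT mice (replicates 4, 5, 6 and 7), each from 1 mouse at steady state. NK cells were enriched with DX5 beads and sorted as CD49b+ CD3e- cells, 200000 per mouse. The labels give neither strain, age, sex nor litter, and they do not say how the MUT allele was made, so any of these that differs between the genotypes cannot be told apart from HSF1.

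The MHC packs the genes by which a cell shows its contents to lymphocytes. Class I molecules carry peptides from inside the cell to CD8 T cells and are also read by NK receptors: H2-K1 and H2-D1 products by Ly49 receptors, and the H2-T23 product Qa-1 by CD94/NKG2A. Class II molecules present endocytosed antigen in B cells, dendritic cells and macrophages. The class III stretch between them holds genes of complement, tumour necrosis factor (TNF) and HSP70. Many H2-Q, H2-T and H2-M genes are close copies of each other. How reads that fit several copies were treated is not given in the sources used here, so peaks at those genes are uncertain.

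The lists hold positions and a score per peak but no reads, so the depth behind each value is unknown. Where a list has no peak, none was called there, and the chromatin need not be closed. The 8 lists held 42695 to 49627 peaks, and p-values below that compare the genotypes measure the spread between mice of each genotype. The exact sign-flip tests below set the window against the rest and pool all 8 libraries, whatever their genotype. These libraries are read on the same genome build and gene table, so the sign-flip p-values measure only the spread between libraries. Whether other windows of the genome differ as much from the rest was not tested. All 8 NK marker genes had linked peaks in all 8 libraries, with 33554 to 37146 bp in MUT and 34371 to 36405 bp in WT. Of these 1 was called, Klrb1c, the NK1.1 antigen gene, lower in MUT (log2 -0.27 ± 0.041, limma adjusted p = 0.031). Ncr1 went the other way, uncalled and without overlap, with 3188 to 4007 bp in MUT and 2644 to 3097 bp in WT (limma adjusted p = 0.278). Linked peaks in all 8 libraries were found at 2 of 8 B cell, 5 of 8 T cell and 5 of 10 myeloid and dendritic markers. B cell markers had 1743 to 3121 bp in MUT and 1608 to 2588 bp in WT, with Cd79a, Ms4a1 and Fcer2a at 0 in every library. T cell markers had 5223 to 6684 bp in MUT and 4360 to 5196 bp in WT, with Cd4, Cd8a and Cd8b1 at 0 in every library. Myeloid and dendritic markers had 4927 to 6238 bp in MUT and 4912 to 5961 bp in WT, with Lyz2, Zbtb46 and Mpo at 0. The T cell sums did not overlap between the genotypes, and their part in the results below was not tested.

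Class I promoters are shown first because the classical genes and several Q genes share 1 arrangement of letters. The promoter of H2-K1 (GRCm38.p6, RefSeq, chr17:34000298-34000597, minus strand) runs from 250 bases before to 50 bases after the first base of the transcript. Capitals mark a kappaB type match (GGGNNTTCC), an interferon type match (GAANNGAAA, here on the other strand) and a pair of CCAAT boxes, searched on both strands.
H2-K1: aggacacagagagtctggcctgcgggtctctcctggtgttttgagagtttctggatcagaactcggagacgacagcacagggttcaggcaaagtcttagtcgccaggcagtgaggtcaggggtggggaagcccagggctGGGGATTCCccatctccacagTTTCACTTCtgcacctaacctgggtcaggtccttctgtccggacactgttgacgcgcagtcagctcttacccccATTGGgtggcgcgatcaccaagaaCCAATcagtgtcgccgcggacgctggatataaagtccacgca

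A kappaB type match followed within 30 bases by an interferon type match was found in 19 of 32851 promoter windows in the RefSeq table (0.058%), belonging to 18 genes. In the MHC it was found in 7 of 214 windows (3.27%), those of H2-K1, H2-D1, H2-Q4, H2-Q6, H2-Q7 and H2-M2. Stretches of 50 bases across these matches are set side by side, with only the kappaB and interferon type letters in capitals, and with H2-Q10 and H2-M3 as class I genes that have the second match and not the first.
H2-K1: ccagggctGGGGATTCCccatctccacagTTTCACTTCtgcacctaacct
H2-D1: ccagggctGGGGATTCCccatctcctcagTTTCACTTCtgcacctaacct
H2-Q4: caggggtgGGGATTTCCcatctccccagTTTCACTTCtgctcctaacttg
H2-Q6: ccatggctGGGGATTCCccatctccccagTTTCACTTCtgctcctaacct
H2-Q7: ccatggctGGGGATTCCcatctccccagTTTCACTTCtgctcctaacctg
H2-Q10: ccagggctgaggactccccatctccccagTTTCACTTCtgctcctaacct
H2-M3: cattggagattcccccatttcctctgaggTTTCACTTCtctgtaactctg
Counted from 1 at the first base printed, the H2-D1 stretch differs from that of H2-K1 by 1 base (A26T) and the H2-Q10 stretch by 4 (G10A, T14C, A26C and A42T). The first 2 of those 4 fall in the kappaB type letters. Over the whole 300 bases, the H2-K1 promoter shared 71.3% of its bases with that of H2-D1 and 73.3% with that of H2-Q7. H2-D1 shared 84.7% with H2-Q10, and H2-Q6 shared 84.7% with H2-Q7. Each promoter that carries the pair of matches, other than that of H2-M2, lay under a member region called in all 8 lists. The H2-Q10 promoter lay under a region called in 0 of 4 MUT and 3 of 4 WT lists. The H2-M3 promoter, with the interferon type match alone, lay under a region called in all 8. A letter match is a description and not evidence of a bound site.

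The window was dense in open chromatin in every mouse. It held 272, 300, 287 and 271 peaks in MUT 26, 27, 28 and 29, against 269, 279, 290 and 256 peaks in WT 4, 5, 6 and 7. That is 64.0 to 75.0 peaks per Mb in the window, against 16.1 to 18.7 per Mb in the rest of the genome. The ratio was 2.02 ± 0.034 on the log2 scale (SD, n = 8), above 0 in 8 of 8 libraries (exact two-sided sign-flip test, p = 0.0078, the smallest that 8 libraries allow, and the same after adjustment over the 4 values tested in this way). Against the rest of chromosome 17, which held 2141 regions, the log2 ratio was 1.65 ± 0.034 (exact sign-flip p = 0.0078). Per protein-coding gene the order was the other way round, with 1.33 to 1.55 peaks per gene in the window, against 1.96 to 2.27 in the rest of the genome. The window holds 193 of the 21887 protein-coding genes in the RefSeq table.

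Open regions of the MHC sat at gene ends more often than those elsewhere. Of window peaks, 44.6 to 47.2% lay within 1 kb of an end of a protein-coding gene, 17.3 ± 0.77 percentage points more than in the rest of the genome (SD, n = 8; higher in 8 of 8 libraries, exact sign-flip p = 0.0078). Window peaks were also narrower by 11.1 ± 4.3 bp on average in 8 of 8 libraries (exact sign-flip p = 0.0078). Of the 295 regions, 128 (43.4%) lay at a gene end, 70 (23.7%) in a gene body and 97 (32.9%) between genes. Over the whole series the shares were 26.5%, 42.6% and 30.9%. Promoter windows lay under 92 of the 295 regions (31.2%), against 19.7% of regions in the whole series.

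Regions of the window were called across mice about as steadily as those of the whole series. A peak was present in all 8 lists at 215 of the 295 regions (72.9%), against 34461 of 50044 (68.9%) in the series. The other 80 spread over 14 regions in 2 lists, 10 in 3, 13 in 4, 11 in 5, 16 in 6 and 16 in 7. Merged widths ran from 210 to 1479 bp with a median of 479 bp, close to 477 bp in the series. The widest region, 1479 bp, lay across an end of Vars, the valyl-tRNA synthetase gene. The others of the 5 widest lay at Gabbr1 (a GABA-B receptor subunit, 1419 bp), Gnl1 (a GTP-binding protein, 1414 bp), the class I gene H2-T24 (1356 bp) and BC051142 (1341 bp).

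The densest stretches were the K, class III and class II blocks. The K block around H2-K1 held 11 regions (11.4 per 100 kb), the class III block 77 (11.02 per 100 kb) and the class II block 50 (10.59 per 100 kb). The T block held 26 regions (9.26 per 100 kb), the D and Q block 22 (9.06), the framework block from Pou5f1 42 (8.44) and the flank before H2-K1 39 (7.86). The M and olfactory block, with 43 protein-coding genes over 1216 kb, held 28 regions (2.303 per 100 kb). Its longest stretch without a member ran 392 kb among the H2-M10 genes, and the last 229 kb of the window, with olfactory receptor genes, held none. In the class II block 60.0% of regions were called in all 8 lists, as were 60.7% in the M and olfactory block, against 73.1 to 82.1% in the other blocks.

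**Figure D1:**
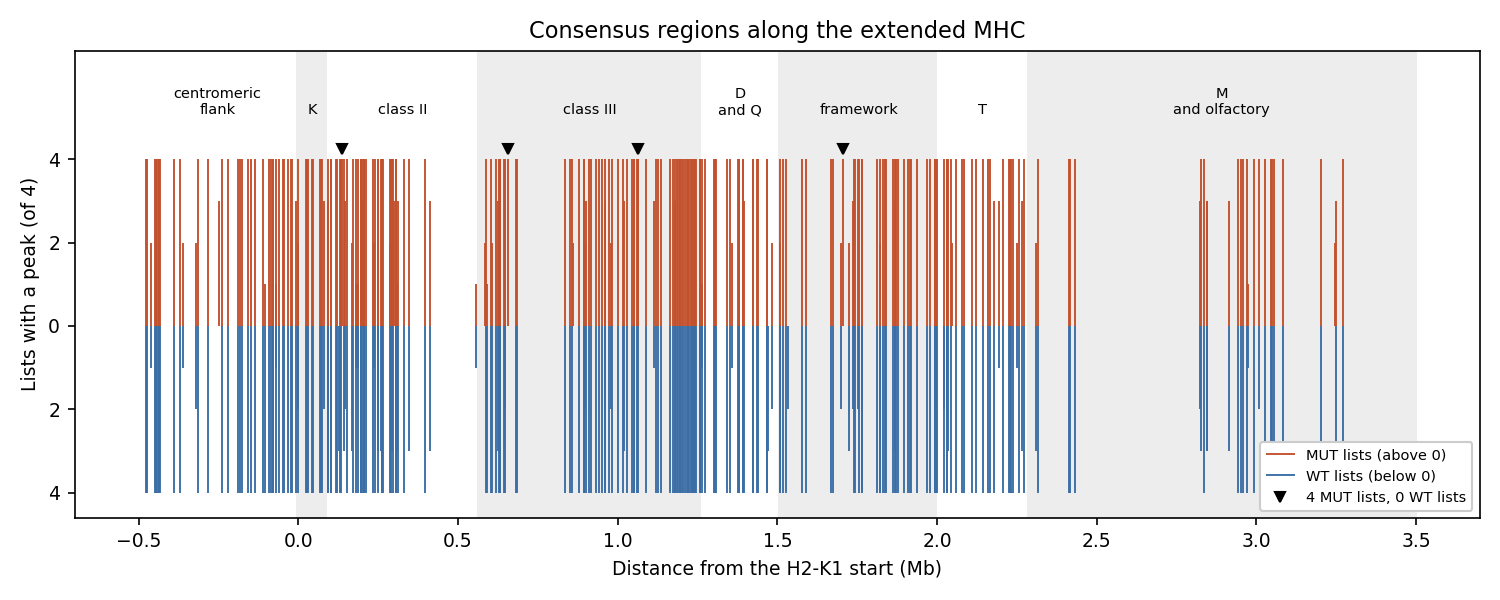
Each line is 1 of the 295 regions, placed by its distance in Mb from the H2-K1 start, and its height is the number of lists with a peak, for the 4 MUT lists above 0 and the 4 WT lists below 0. Regions crowd the K, class II and class III blocks and thin out in the M and olfactory block, and triangles mark the 4 regions called in 4 MUT and 0 WT lists.

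**Figure D2:**
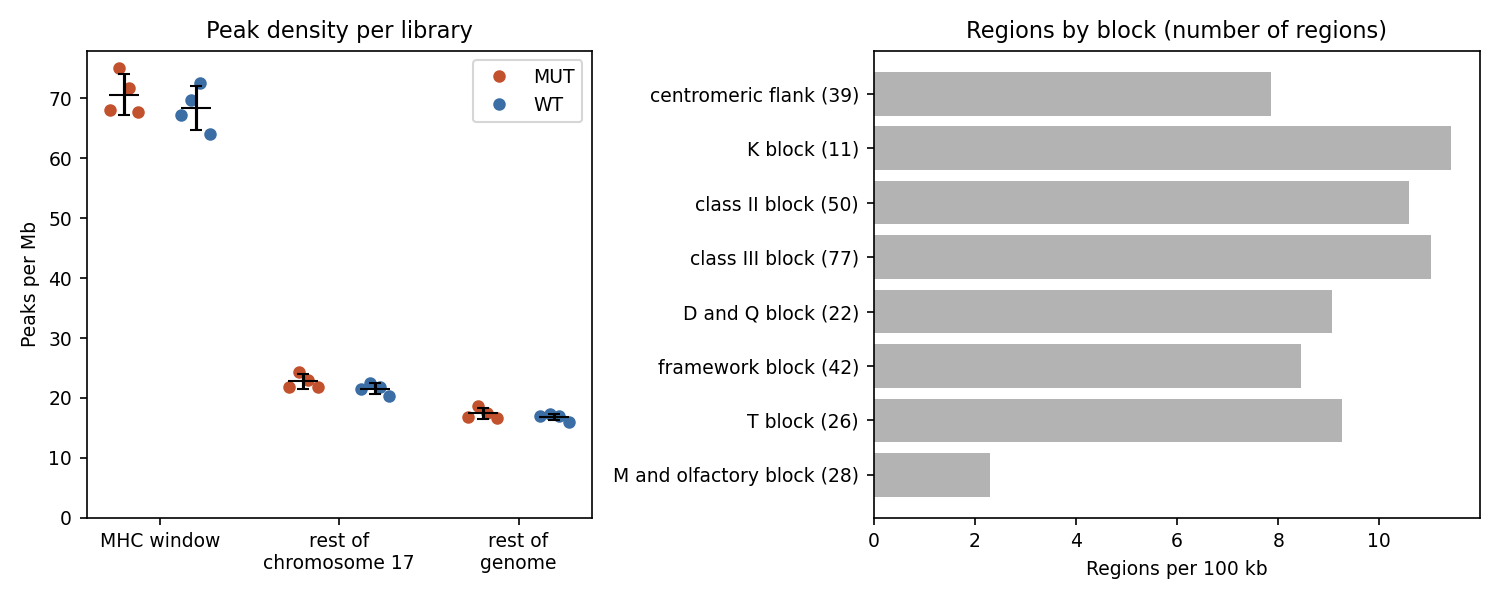
Left, peaks per Mb in each library (points) with mean and SD, MUT beside WT, for the MHC window and the rest of chromosome 17 and of the genome; the window lies at 64.0 to 75.0 in both genotypes. Right, member regions per 100 kb in the 8 blocks, from 2.303 in the M and olfactory block to 11.4 in the K block.

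The amount of open chromatin in the window did not differ detectably between the genotypes. The window took 0.610 ± 0.0049% of all peaks in MUT and 0.612 ± 0.022% in WT (SD, n = 4 each; exact two-sided permutation test over 70 assignments, p = 0.971). Peaks covered 136 ± 9.9 kb of it in MUT and 132 ± 5.4 kb in WT (exact permutation p = 0.514). Peaks at gene ends made up 46.0 ± 1.4% of window peaks in MUT and 45.8 ± 0.80% in WT (exact permutation p = 0.857). Adjusted over these 3 values, each p was 0.971, and the smallest p this design allows is 0.0286. The sign of the share rests on WT 6, the library with the highest share, and turns without it: the difference is then 0.0087 percentage points.

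Length under peaks was then compared region by region, on log2(bp + 200) with the lists scaled to equal totals (limma with Benjamini-Hochberg adjustment over all 50044 regions). The scale understates changes of short regions, and lengths in bp are given unscaled. Of the 295 members, 5 passed an adjusted p of 0.05 (1.69%), against 0.915% of all regions. Higher in MUT were 4, against 0.681% of all regions, and lower in MUT was 1, against 0.234%. At an unadjusted p under 0.05 stood 38 members (12.9%), against 10.53% of all regions. The median member difference was -0.024 and that of all regions -0.019. Of calls over all regions 341 of 458 were higher in MUT, and 254 of 422 were with equal numbers of peaks.

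The 4 regions higher in MUT are those called in every MUT list and no WT list, a pattern held by 0.583% of all regions. The reverse pattern, held by 0.178% of all regions, occurred at 0 members. Fisher's exact test gives such a region p = 0.0286, the smallest it can, and none of the 50044 passed after adjustment. The limma calls here rest on WT libraries that are all at 0, where no spread is measured, and their fitted differences depend on the 200 bp added to each length.

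The first of the 4 lies at the upstream end of Ddr1, a collagen receptor tyrosine kinase (chr17:35704610-35705170). Its peaks covered 406, 384, 419 and 222 bp in MUT 26, 27, 28 and 29, and 0 bp in each WT library (log2 difference 1.44 ± 0.14 SE, limma adjusted p = 0.0031). Counted from the gene start, with negative values upstream, the outer edges in MUT stood at -571 to -265 bp and the inner edges at -188 to -11 bp. Scores of these peaks were low, at percentiles 11.2 to 23.3 of their own lists. The promoter is printed below (chr17:35704550-35704849, minus strand), with capitals at the 117 bases that peaks of at least 3 of 4 MUT lists cover and that no WT peak covers.
Ddr1: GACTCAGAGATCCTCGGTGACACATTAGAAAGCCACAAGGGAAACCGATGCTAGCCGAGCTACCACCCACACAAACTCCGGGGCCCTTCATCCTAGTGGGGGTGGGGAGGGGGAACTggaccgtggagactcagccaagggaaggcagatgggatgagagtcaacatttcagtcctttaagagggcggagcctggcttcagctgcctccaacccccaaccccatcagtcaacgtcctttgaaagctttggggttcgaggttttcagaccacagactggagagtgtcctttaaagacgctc

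The other 3 were short and low in score as well. At one end of Atf6b, a stress-responsive transcription factor gene of the endoplasmic reticulum (chr17:34655494-34655955), MUT peaks covered 295, 245, 396 and 275 bp and WT peaks 0 bp (log2 1.30 ± 0.14, limma adjusted p = 0.0048). In the body of Mpig6b, which encodes an inhibitory receptor of platelets and megakaryocytes (chr17:35064244-35064521), they covered 275, 224, 234 and 215 bp in MUT and 0 bp in WT (log2 1.11 ± 0.14, limma adjusted p = 0.0075). In the body of H2-DMa, a subunit of the class II peptide editor (chr17:34136611-34136837), they covered 212, 201, 217 and 227 bp in MUT and 0 bp in WT (log2 1.04 ± 0.15, limma adjusted p = 0.012). Their mean score percentiles lay between 4.12 (H2-DMa) and 22.4 (Mpig6b). All MUT libraries had a peak at each of these regions and no WT library had one. With equal numbers of peaks taken from each list by score, the Ddr1 and Atf6b calls were lost (limma adjusted p = 0.357 each). The H2-DMa region then dropped out of the regions tested, and Mpig6b was the 1 member still called. The Mpig6b and H2-DMa calls were lost without MUT 26 (0.0622 and 0.079) and without MUT 28 (0.0503 and 0.0793), and with a peak required in at least 4 lists (0.0893 and 0.153).

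The member lower in MUT covers the shared start of Rxrb, a retinoid X receptor gene, and Slc39a7, a zinc transporter gene (chr17:34031492-34032510). Its length was 641, 875, 631 and 556 bp in MUT 26, 27, 28 and 29, against 981, 980, 899 and 914 bp in WT 4, 5, 6 and 7 (log2 -0.43 ± 0.071 SE, limma adjusted p = 0.029). All 4 MUT lengths lay below all 4 WT lengths. The upstream edge stood 236 to 293 bp before the first Rxrb start in MUT and 314 to 320 bp before it in WT. Downstream, peaks of MUT 26, 28 and 29 ended 319 to 347 bp after that start, while MUT 27 and all 4 WT lists reached 659 to 698 bp. MUT 27, WT 6 and WT 7 had a second, separate peak there. The call was lost with the lists unscaled (adjusted p = 0.236), with equal numbers of peaks (0.206), with a peak required in at least 4 lists (0.0662) and without any 1 of MUT 26, MUT 28, MUT 29, WT 4, WT 5 or WT 7 (0.0611 to 0.0934). The promoter of the second Rxrb start is printed (chr17:34032100-34032399, plus strand), with capitals at the 144 bases covered in 4 of 4 WT lists and in at most 1 MUT list.
Rxrb: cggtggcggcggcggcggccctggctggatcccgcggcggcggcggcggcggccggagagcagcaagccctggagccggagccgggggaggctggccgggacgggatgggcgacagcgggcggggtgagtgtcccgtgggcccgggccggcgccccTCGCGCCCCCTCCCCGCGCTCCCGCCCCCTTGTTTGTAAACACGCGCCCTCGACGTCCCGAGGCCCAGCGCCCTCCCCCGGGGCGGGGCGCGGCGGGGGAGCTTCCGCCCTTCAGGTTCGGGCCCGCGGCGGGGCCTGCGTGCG

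**Figure D3:**
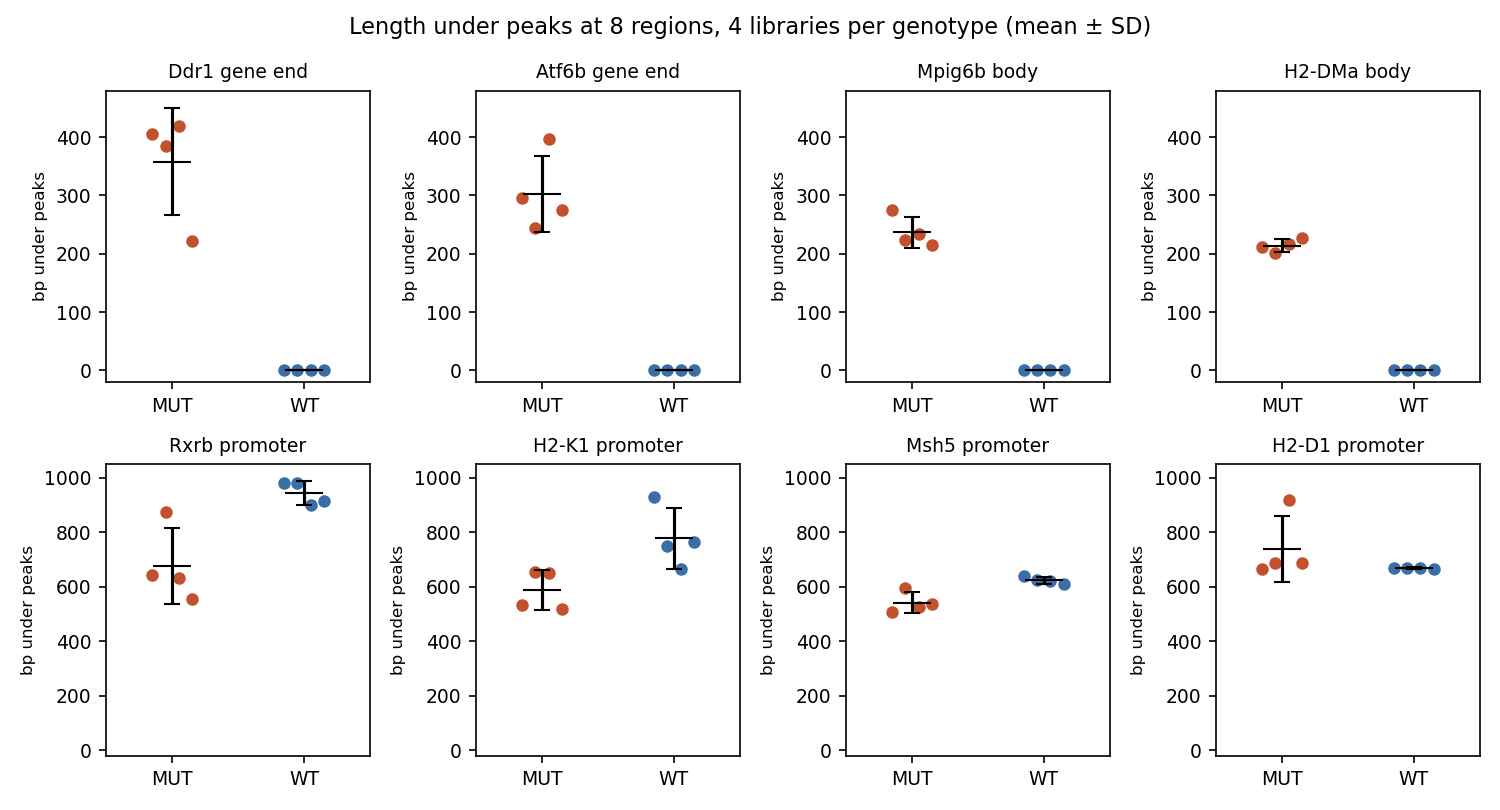
Length under peaks in bp at 8 regions, with 4 MUT libraries left of 4 WT libraries in each panel, and the mean and SD. Ddr1, Atf6b, Mpig6b and H2-DMa regions have peaks in every MUT and no WT library, Rxrb, H2-K1 and Msh5 promoters are shorter in MUT, of which only Rxrb passed the adjusted test, and the H2-D1 promoter overlaps.

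A further 3 members were called in 3 MUT lists and no WT list, against 1.19% of all regions, and 2 had the reverse, against 0.432%. At a gene end stood 1 of each. The end of Tap2, a subunit of the peptide transporter (chr17:34203447-34203847), had 273, 365, 245 and 0 bp in MUT and 0 bp in WT (limma adjusted p = 0.349). The start of H2-Q10, a class I gene known for its secreted product from liver (chr17:35469913-35470266), had 0 bp in MUT and 292, 200, 214 and 0 bp in WT (limma adjusted p = 0.354). The others lay in the bodies of Rab11b (higher in MUT) and H2-DMa (lower in MUT) and near H2-Eb1 (higher in MUT). Their limma adjusted p was 0.354 each. The nearest gene end to the one in H2-DMa (chr17:34127573-34127831) is that of Brd2.

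The 10 members with the smallest unadjusted p take in 5 that did not pass adjustment. The Msh5 promoter region, at a gene of meiotic recombination, had 507, 596, 526 and 538 bp in MUT and 639, 623, 619 and 611 bp in WT (log2 -0.18 ± 0.037, limma adjusted p = 0.092). Every MUT length lay below every WT length. A region near H2-Q1 (chr17:35306166-35306709) had 537, 485, 535 and 415 bp in MUT and 346, 304, 376 and 277 bp in WT (log2 0.37 ± 0.075, adjusted p = 0.095). Another near H2-Q1 (chr17:35301574-35302305) differed by -0.28 ± 0.073 (adjusted p = 0.231). In the body of Smim40 a peak was called in MUT 27 alone among MUT lists and in all 4 WT lists (log2 -0.92 ± 0.23, adjusted p = 0.217). Of the 5 that did not pass adjustment, 4 passed when 1 library was left out. The Smim40 region passed without MUT 27 (limma adjusted p = 0.0138) and the Msh5 region without MUT 29 (0.0299). The first H2-Q1 region (0.042) and the H2-K1 promoter region (0.0445) passed without WT 6. Called members numbered 8 without MUT 29 and 8 without WT 6, more than are named here.

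The last of these 5 uncalled members is the H2-K1 promoter (chr17:33999677-34000618). Its length was 533, 652, 650 and 517 bp in MUT 26, 27, 28 and 29, against 929, 751, 664 and 763 bp in WT 4, 5, 6 and 7 (log2 -0.34 ± 0.078 SE, limma adjusted p = 0.156). The upstream edge stood 255 to 271 bp before the gene start in MUT and 249 to 269 bp before it in WT, so the groups overlapped there. The downstream edge stood 261 to 385 bp after the start in MUT and 414 to 670 bp after it in WT, with no overlap. The kappaB and interferon type letters printed above lay inside the peak in all 8 lists. Score percentiles were 76.6 to 87.0 in MUT and 83.2 to 87.3 in WT. At H2-D1, whose printed stretch differs by a single base, the promoter region had 663, 685, 919 and 685 bp in MUT and 670, 670, 670 and 663 bp in WT (log2 0.068 ± 0.077, limma adjusted p = 0.774).

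**Figure D4:**
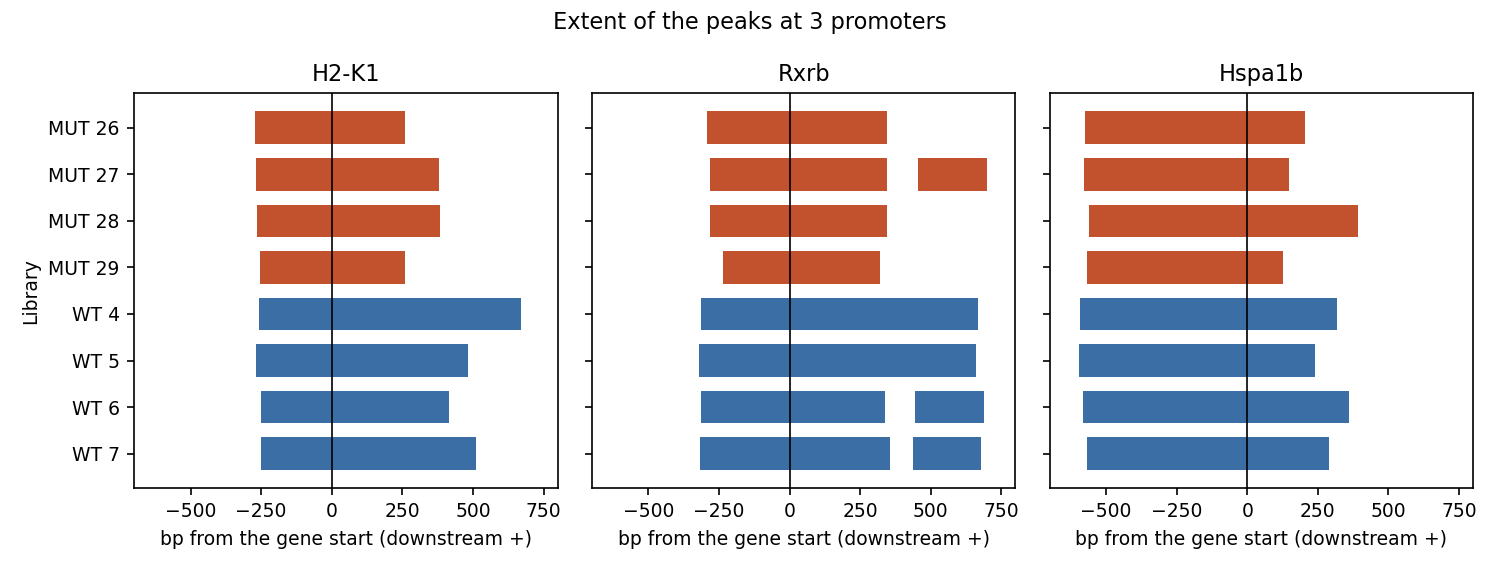
Extent of each peak, in bp from the gene start, at the H2-K1, Rxrb and Hspa1b promoters, with the 4 MUT libraries above the 4 WT libraries. Downstream ends at H2-K1 lie at 261 to 385 bp in MUT and 414 to 670 bp in WT, while upstream ends line up.

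Peak lengths were also summed per gene, each peak going to the protein-coding gene whose end lies closest within 50 kb, a link by distance and not by function. Of 193 genes in the window, 137 had enough peaks to be tested, and 1 passed an adjusted p of 0.05 (limma over 14254 genes), against 0.673% of all genes in either direction and 0.232% lower in MUT. That gene is H2-K1, with 786, 902, 911 and 926 bp in MUT and 1183, 1244, 1219 and 1073 bp in WT (log2 -0.38 ± 0.066 SE, limma adjusted p = 0.0495). The call is at the edge of the threshold. It was lost with the lists left unscaled (adjusted p = 0.0601), with a link of 10 kb (0.0797), with the upper 50% of each list (0.256) and without any single library other than MUT 29, where adjusted p ran from 0.0799 (without WT 7) to 0.137 (without WT 5). Its sign was kept in 16 of 16 alternatives. Over all genes 63 of 96 calls were higher in MUT, and 63 of 82 were when the lists were not scaled. The median window gene differed by -0.025 and the median of all genes by -0.019. At an unadjusted limma p under 0.05 stood 19 of the 137 (13.9%), against 11.2% of all genes. By list these were 6 of 13 chromatin and transcription genes, 3 of 9 class II genes, 2 of 2 HSP70 genes, 2 of 21 housekeeping and RNA genes, 1 of 6 Q group genes and 1 of 2 classical class I genes. None was among the T and M groups, antigen processing, complement, the TNF cluster or the genes of antigen presentation outside the window. Smim40, Mpig6b, Rab11b and Agpat1, also under 0.05, are in no list. Of 3 TRIM family, 4 olfactory receptor and 1 butyrophilin-like gene tested, 0 passed adjustment and 0 stood under 0.05 unadjusted.

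Class I genes beyond H2-K1 showed no called difference. H2-D1 had 1683, 1663, 2008 and 1339 bp in MUT and 1346, 1362, 1780 and 1527 bp in WT (limma adjusted p = 0.805). H2-T23, the Qa-1 gene, had 1155 ± 99.1 bp in MUT and 1103 ± 176 bp in WT (SD, n = 4 each; limma adjusted p = 0.924), and H2-M3, which presents formylated peptides, had 1086 ± 160 bp in MUT and 1135 ± 45.7 bp in WT (adjusted p = 0.637). In the Q group, 6 of 6 genes were tested and 0 passed, with a median of -0.0023. H2-Q6 came closest, with 1033, 1305, 1277 and 1259 bp in MUT and 747, 774, 994 and 778 bp in WT (log2 0.44 ± 0.095, limma adjusted p = 0.107), and passed without WT 6 (0.0476). At its promoter region the genotypes overlapped, with 447, 688, 448 and 403 bp in MUT and 407, 458, 425 and 444 bp in WT. A region upstream of it (chr17:35423161-35423779) had 586, 617, 606 and 603 bp in MUT and 340, 316, 569 and 334 bp in WT. H2-Q7, the gene of the nonclassical molecule Qa-2, had 1012 ± 126 bp in MUT and 1025 ± 122 bp in WT (limma adjusted p = 0.895). Of the T group 4 genes were tested and of the M group 5, with 0 passing in each. A promoter peak was absent in all 8 lists at 11 of the 12 M group genes with a RefSeq promoter, the exception being H2-M3, and at 15 of the 15 olfactory receptor genes with one.

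Of 5 genes that load class I, the 4 with a RefSeq promoter were open at their starts in both genotypes. Tap1 and Psmb9, a peptide transporter subunit and an immunoproteasome subunit, face away from each other across 1 region (chr17:34186886-34187924) of 1034 ± 6.1 bp in MUT and 1002 ± 25.2 bp in WT (SD, n = 4 each; log2 0.0010 ± 0.043, limma adjusted p = 0.9999). Their shared start holds a heat shock type unit (GAANNTTC), shown in capitals on the plus strand (chr17:34187505-34187554), a match present in 7.86% of all promoter windows and 8.88% of those in the MHC.
Tap1: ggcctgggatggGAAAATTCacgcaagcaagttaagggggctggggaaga
All 4 genes of this list with a RefSeq promoter, Tap1, Psmb9, Psmb8 and Tapbp, had a promoter peak in all 8 lists. Of the 5 genes tested, 0 passed, with log2 differences from -0.049 (Psmb8) to 0.082 (Tap2) and a median of 0.021. Outside the window, 17 of 18 genes of antigen presentation were tested and 0 passed, with a median of -0.039. B2m, the class I light chain, had 1894 ± 35.4 bp in MUT and 1764 ± 156 bp in WT (adjusted p = 0.789), and Nlrc5, a transactivator of class I genes, had 2271 ± 400 bp in MUT and 2388 ± 406 bp in WT (adjusted p = 0.791).

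Of 9 class II genes, 8 had linked peaks in every library, and H2-DMb2, a beta chain of the peptide editor, had 880, 969, 727 and 398 bp in MUT and 326, 556, 863 and 0 bp in WT (limma adjusted p = 0.620). Of 9 genes tested, 0 passed, 8 lay above 0 and 1 below, and the median was 0.15. Summed over the list, linked peaks covered 9486 to 13391 bp in MUT and 8655 to 11096 bp in WT, ranges that overlap. B cell, T cell and myeloid marker sums, given above, ran 1743 to 3121, 5223 to 6684 and 4927 to 6238 bp in MUT and 1608 to 2588, 4360 to 5196 and 4912 to 5961 bp in WT, and their part in the class II values was not tested. H2-Aa, an alpha chain, had 1451, 1760, 1714 and 1357 bp in MUT and 1392, 1347, 1418 and 1007 bp in WT (log2 0.22 ± 0.090, limma adjusted p = 0.414). H2-DMa had 1886, 1872, 1868 and 1825 bp in MUT and 1664, 1637, 1655 and 1672 bp in WT (log2 0.12 ± 0.049, limma adjusted p = 0.422). Its MUT and WT values did not overlap, and the region in its body called in MUT lists alone accounts for 201 to 227 bp of them in MUT. Another 955 to 982 bp in MUT and 963 to 988 bp in WT come from a Brd2 promoter region (chr17:34118998-34119992). That region is linked to H2-DMa because an H2-DMa end lies closest to it.

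Other class II genes overlapped between the genotypes. H2-Ab1, the beta chain that pairs with H2-Aa, had 1482 ± 108 bp in MUT and 1282 ± 84.1 bp in WT (SD, n = 4 each; limma adjusted p = 0.489), and H2-Oa, a subunit of the inhibitor of peptide editing, had 1653 ± 260 bp in MUT and 1531 ± 183 bp in WT (adjusted p = 0.842). H2-Eb2 had 1079, 1514, 1216 and 1019 bp in MUT and 799, 709, 1079 and 842 bp in WT (limma adjusted p = 0.270). H2-Eb1, another beta chain, had 1125 ± 395 bp in MUT and 1086 ± 90.5 bp in WT (limma adjusted p = 0.945), and its start was called in all 8 lists. Its promoter holds an X box type match (CAACNGATG) ahead of a CCAAT box on the other strand (plus strand, chr17:34305765-34305814). The X box is the element at which the RFX complex, a regulator of class II genes, binds. Those X box letters occur in 0.57% of all promoter windows and in 2 of the 214 windows of the MHC, those of H2-Eb1 and H2-Eb2.
H2-Eb1: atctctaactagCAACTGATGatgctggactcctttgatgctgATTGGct

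No class III gene of immunity passed the test. Tnf, the TNF gene, had 458, 457, 464 and 477 bp in MUT and 488, 488, 462 and 496 bp in WT, all from 1 region in its body (limma adjusted p = 0.772). Lta, the lymphotoxin alpha gene, had 918 ± 108 bp in MUT and 833 ± 66.8 bp in WT (SD, n = 4 each; limma adjusted p = 0.821). Ltb, the lymphotoxin beta gene, had 1048, 965, 1007 and 987 bp in MUT and 550, 904, 1022 and 604 bp in WT (limma adjusted p = 0.522). Its promoter region was called in 4 MUT lists and in WT 5 and WT 6. Lst1, a gene of the TNF cluster, had 859, 872, 836 and 841 bp in MUT and 786, 792, 823 and 784 bp in WT (log2 0.047 ± 0.052, limma adjusted p = 0.792), values that did not overlap. Of 6 genes of the TNF cluster tested, 0 passed, with a median of 0.031. Complement genes had little linked length. C2, the complement C2 gene, had 310, 333, 460 and 232 bp in MUT and 227, 255, 273 and 200 bp in WT (limma adjusted p = 0.559), mostly from a region in its body (chr17:34879514-34879855) called in all 8 lists. Cfb, the factor B gene, had 0, 211, 200 and 0 bp in MUT and 0 bp in WT (limma adjusted p = 0.643), and C4b, the complement C4 gene, had linked peaks in fewer than 2 lists and was not tested. The LY6 genes of class III had 0 of 6 members tested, with no linked peak in any library, although a region linked to Csnk2b reached the Ly6g5b promoter in 3 MUT lists and 1 WT list.

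Among the HSP70 genes of class III, Hspa1a and Hspa1b are textbook targets of HSF1. Of the 3 HSP70 genes, those 2 were tested, both lay below 0 and 0 passed, with a median of -0.24. In the upper 50% of each list the differences were larger and still not called, -1.3 for Hspa1a (limma adjusted p = 0.533) and -1.1 for Hspa1b (0.780). Hspa1a and Hspa1b, both inducible HSP70 genes, share 98.7% of their promoter bases, so reads may not be told apart between them. Both hold a heat shock type unit (GAANNTTC) and a CCAAT box at matching positions, capitals below (Hspa1b, minus strand, chr17:34959189-34959488).
Hspa1b: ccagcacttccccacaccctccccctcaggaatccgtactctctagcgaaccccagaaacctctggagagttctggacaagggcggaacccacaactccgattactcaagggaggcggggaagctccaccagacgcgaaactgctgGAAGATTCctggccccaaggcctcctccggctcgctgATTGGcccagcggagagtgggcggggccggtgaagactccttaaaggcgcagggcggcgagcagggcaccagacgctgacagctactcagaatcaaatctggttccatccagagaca
The Hspa1b promoter region was 780, 727, 956 and 695 bp long in MUT and 910, 836, 944 and 861 bp in WT (log2 -0.18 ± 0.076, limma adjusted p = 0.458). The Hspa1a promoter region was 731, 644, 833 and 687 bp long in MUT and 842, 818, 827 and 787 bp in WT (log2 -0.18 ± 0.067, limma adjusted p = 0.362). Both overlapped between the genotypes, with MUT 28 the longest MUT library at each. Summed over the gene, Hspa1b had 2042, 1476, 2005 and 1728 bp in MUT and 2410, 2151, 2190 and 2164 bp in WT (log2 -0.31 ± 0.11, limma adjusted p = 0.327), with every MUT value below every WT value. Upstream of Hspa1b a second region (chr17:34959920-34960401) was called in 3 MUT lists, not MUT 27, and in all 4 WT lists. Both promoters were called in all 8 lists at steady state.

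Chromatin and transcription genes held the widest spread of single genes. Of 13 tested 0 passed, with a median of -0.062. Rxrb had the same lengths per gene as its promoter region (limma adjusted p = 0.060), and passed without MUT 27 (0.016) and with the gene of the merged region (0.0497). Pbx2, a homeobox gene, had a promoter peak in MUT 29 alone among MUT lists and in all 4 WT lists (0, 0, 0 and 206 bp in MUT and 260, 302, 235 and 245 bp in WT; adjusted p = 0.239), and passed without MUT 29 (0.0369). Brd2, a reader of acetylated histones, had 717, 992, 993 and 900 bp in MUT and 1100, 1142, 1363 and 1019 bp in WT (limma adjusted p = 0.248). Every MUT value lay below every WT value. That sum includes the region in the H2-DMa body called in 3 WT lists and leaves out a Brd2 promoter region (chr17:34118998-34119992), linked to H2-DMa. Atf6b had 988, 971, 863 and 1019 bp in MUT and 756, 502, 725 and 515 bp in WT (log2 0.47 ± 0.12, limma adjusted p = 0.189), again without overlap. The region at its end called in MUT lists alone accounts for 245 to 396 bp of the MUT values and 0 bp of the WT values. The Atf6b promoter was called in all 8 lists, with 495 ± 23.4 bp in MUT and 502 ± 9.5 bp in WT.

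Daxx, a histone H3.3 chaperone, was among the steadiest, with 944 ± 34.8 bp in MUT and 940 ± 20.7 bp in WT (SD, n = 4 each; limma adjusted p = 0.861). Ehmt2, a histone H3 lysine methyltransferase, had 951, 1208, 871 and 298 bp in MUT and 686, 1190, 830 and 923 bp in WT (limma adjusted p = 0.821). Notch4 had 1169 ± 141 bp in MUT and 1076 ± 88.5 bp in WT (adjusted p = 0.811). Pou5f1, the pluripotency factor gene, had 608 ± 108 bp in MUT and 711 ± 28.1 bp in WT (adjusted p = 0.445), all of it linked to regions outside its promoter, which had a peak in no list.

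Among housekeeping and RNA genes 21 of 25 were tested and 0 passed, with a median of -0.026. Of the 21 with a RefSeq promoter, 18 had a promoter peak in all 8 lists. Ier3, an immediate early gene, had 262, 664, 657 and 382 bp in MUT and 592, 861, 1062 and 1116 bp in WT (log2 -0.74 ± 0.23, limma adjusted p = 0.272). Its start region was called in MUT 27, MUT 28 and all 4 WT lists. Ddr1 summed over its gene had 1400, 2363, 2023 and 1205 bp in MUT and 975, 1605, 1640 and 589 bp in WT (limma adjusted p = 0.582), values that overlap, unlike its upstream region. In the upper 50% of each list, by score, the difference was 1.67 and passed (adjusted p = 0.00979). Mpig6b had 563, 1001, 826 and 437 bp in MUT and 476, 454, 392 and 284 bp in WT (adjusted p = 0.292), and Smim40 had peaks in the same lists as its 1 region (adjusted p = 0.224).

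**Figure D5:**
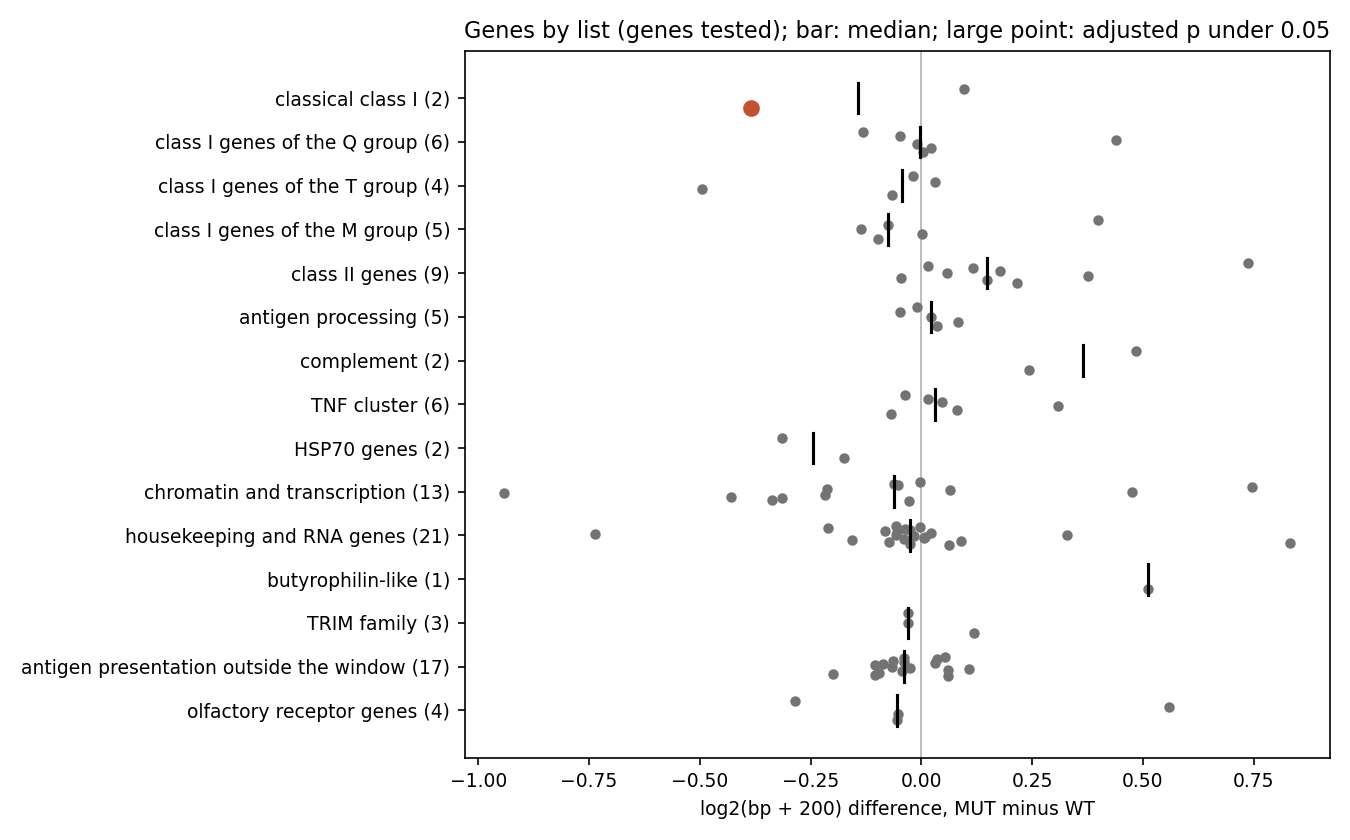
Each point is a gene, placed by its MUT minus WT difference on the log2(bp + 200) scale and grouped by list, with the number tested in brackets, a bar at the median and a large point at an adjusted p under 0.05. H2-K1 is the single called gene, at -0.38, and most lists centre near 0.

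Over all window genes with a RefSeq promoter, the share open in every list was close to that of the genome. A promoter peak was present in all 8 lists at 83 of 167 genes (49.7%) and in no list at 69 (41.3%), against 49.6% and 45.6% of 17492 protein-coding genes. Between these stood 15 genes, where mice differed. Strongest by score percentile were regions at an end of Marchf2 (99.4), between genes nearest to H2-M10.4 (98.9), in the H2-DMa body (98.6) and 1 between genes near a predicted gene (98.3). The other 6 of the top 10, from 92.5 to 94.8, lay at ends of Gtf2h4, Gpank1, Ppp1r11 and Kifc1, in the body of Kank3 and at a predicted gene whose region also spans the H2-T22 promoter. Of these 10 regions 0 were called between the genotypes, and each was called in all 8 lists.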

How the data were processed

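ATAC-seq peak lists of 8 libraries, 1 per mouse, were used as deposited by the authors, called per library and not pooled. Each peak has a position, a name and an unnamed score; the score is the authors' own value and served only to rank or filter peaks within its list. The submitters' processing notes name Bowtie2 2.3.4.1, Trimmomatic, DiffBind 3.0.12 and DESeq2, without saying what each did, and give mm10 (GRCm38) as build. Not given in the sources used here are the program that called the peaks, its cutoff, how reads were filtered and whether cut sites were shifted. With no reads in the files, no count test was run. Positions are 1-based.

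Regions, gene links and tests are as given in the report. Genes (21887 protein-coding) and promoter sequences came from RefSeq tables of GRCm38.p6. Of the 193 genes in the window, 167 matched a promoter entry, with 214 windows in all. The region limma fit used each list's bp per region, scaled to equal totals, and the gene fit used the bp linked within 50 kb, for genes with peaks in at least 2 lists. Calls had an adjusted p under 0.05. Single regions were also tested by Fisher's exact test. Library values were compared by exact two-sided permutation. Identity of promoters came from a global alignment, over 300 bases.

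The members, gene lists and tests were chosen with earlier results of these data known. Named were 30 genes always taken, regions present in 1 genotype alone, the 10 regions highest in score, the 5 widest, and the regions or genes past the threshold or with the 10 smallest p. Any other region, promoter, peak edge or gene in the text was picked with its values in view. Predicted genes were not named. Fits were tested on simulated data. Alternatives tried were the upper 50% of each list, equal numbers of peaks, leaving out each library, other windows, gene-end distances, merging gaps, added lengths, scalings, filters and links. Python 3.11.15, scipy 1.17.1, biopython 1.88, R 4.3.3 and limma 3.58.1 were used.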

Additional observations from a re-analysis of the deposited data

Results flagged for a closer look

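Within each genotype, 83 groups of 4 library values were examined for a value far from the other 3 (by Dixon's gap over range, at the 95% critical value), and 10 were found (12.05%); chance flags about 1 in 20 such groups. WT 6 stood apart in the window's share of its peaks, with 0.643%, against 0.598 to 0.605% in the other WT lists, and in the log2 density over the rest of the genome, with 2.10, against 1.99 to 2.01. MUT 28 had the lowest gene-end share over the rest among MUT lists, 16.4 percentage points, against 18.02 to 18.24, and WT 4 had the lowest among WT lists, 16.2, against 17.1 to 17.2. WT 7 had the least linked length at H2-T23 (842 bp, against 1159 to 1223 bp) and Tapbp (1179 bp, against 1378 to 1402 bp) and the most at Lta (933 bp, against 794 to 809 bp). Hspa1b had 2410 bp in WT 4, against 2151 to 2190 bp in the other WT lists. Notch4 had 1209 bp in WT 6, against 1026 to 1038 bp. The Smim40 region had 206 bp in MUT 27 and 0 bp in the other MUT lists.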

How the results depend on the processing

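Density over the rest of the genome, the gene-end excess and the length covered kept direction and side of the threshold in every alternative run for them. The difference in the window's share of peaks ran from its lowest, -0.0066, to 0.0087 percentage points (without WT 6) when 1 library was left out, and was 0.0027 with the window from H2-K1 to 37 Mb. The gene-end difference was -3.12 points in the upper 50% of each list (exact permutation p = 0.0286), -0.25 with ends taken at 500 bp, and -0.26 to 0.62 without 1 library. Regions called in all MUT lists and no WT list numbered 2 in the upper 50% and 1 with equal numbers of peaks, and 4 to 6 without 1 library; the reverse numbered 0 to 1 without 1 library. Called members numbered 2 in the upper 50%, 1 with equal numbers, 2 with a peak in at least 4 lists, and 2 to 8 without 1 library. None of the 5 members called in the main fit had a region in the upper 50%, so the 2 called there are other members. The 2 regions called there in all MUT and no WT lists are likewise not the 4 described above. Called genes numbered 0 unscaled, 0 with a link of 10 kb, 2 with the gene of the merged region, and 0 to 2 without 1 library. In the upper 50% the log2 differences of uncalled genes turned to -0.71 (H2-D1), 0.21 (H2-M3), -0.028 (H2-Ab1), 0.34 (H2-Eb1), -0.57 (H2-DMa), -0.25 (Tap2), -0.032 (Atf6b), 0.41 (Ehmt2) and -0.15 (Notch4), and with equal numbers to -0.13 (Tap2) and -0.14 (Notch4). The causes were not tested. No paired analysis was possible because the genotypes share no replicate number. Depth is unknown, so an absent peak cannot be weighed against it.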
